A study of Drosophila melanogaster with 11 samples.

Results

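The library labelled *Cp190* knockdown holds nascent RNA that the labels assign to Kc167 (Kc) cells, a *Drosophila* embryonic hemocyte line of female origin, and was compared with 4 mock libraries labelled as the same line. It was chosen by its label, as the sample titled *Cp190* knockdown replicate 1, and is 1 of the 11 libraries of the series. By its label, the cells of this library had received 12 µg of *Cp190* double stranded RNA (dsRNA), whereas mock cells had received none. The level of *Cp190* in the library goes against this label, and whether the label or the cell line is the right one was not tested. For the genes with the largest differences, values are set beside those of 2 libraries labelled *M1BP* knockdown (20 µg of dsRNA) and 2 labelled *mod(mdg4)* knockdown (5 µg), against the same mock libraries. The study normalized separate experiments on their own, and the labels do not say which mock libraries belong to which knockdown. In *M1BP* and *mod(mdg4)* knockdown as here, the 4 mock libraries may thus span more than 1 experiment. In all these groups 0.2 mM 5-ethynyl uridine (EU), a uridine analog by which new RNA can be captured, was given for 1 h at 5 days after transfection, and captured RNA was sequenced as 50 bp single-end reads counted per gene with introns included. The labels do not say whether the mock libraries came from separate cultures, so their spread may be technical. The library has no replicate here, and the values below carry no test.

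CP190 is a BTB domain protein found in most chromatin insulator complexes of *Drosophila*, where it is brought to DNA by sequence-specific partners such as Su(Hw), CTCF, BEAF-32 and M1BP. Insulators limit the contact of enhancers with promoters and separate active from repressed chromatin. M1BP binds Motif 1, a core promoter element of many constitutively transcribed genes, including ribosomal protein genes. The comparison addresses which genes are transcribed differently when CP190 is to be depleted.

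The library held 9476448 counts and the mock libraries 24944604 to 29680851. Levels are given as CPM, which are counts relative to library size, scaled by trimmed mean of M values (TMM), and 3 counts, taken as the floor, equal 0.31 CPM in the library and 0.103 to 0.119 CPM in mock libraries. Of 17771 genes, 10180 passed the expression filter and were compared, and 933 of these passed it through the library alone. Relative to mock, 3945 genes (38.8%) lay above all 4 mock libraries, 4642 (45.6%) below all of them and 1593 (15.6%) within their range. Of those below, 1012 had 0 counts in the library. At its lower depth, 0 counts can be met by a gene of low level and lie below whenever every mock library has a count. A level at least 2-fold higher and above the mock range was seen for 2522 genes (24.8%), and one at least 2-fold lower and below it for 1736 (17.1%). Of the 933 genes that passed through the library alone, 932 were at least 2-fold higher, which that filter nearly fixes. Without these genes, 1590 of 9247 were at least 2-fold higher, the 1736 lower ones stayed in, and the median was -0.18 in place of -0.07. This version was added after the data were seen. Over all 10180 genes the median log2 ratio was -0.07, with quartiles of -0.71 and 0.99. Among the 6661 genes with a mean of at least 5 CPM the median was -0.26, and 1801 (27.0%) lay above and 3472 (52.1%) below the mock range. Across genes the Pearson correlation of log2 CPM with the mock libraries was 0.869 to 0.877, compared with 0.990 to 0.997 between mock libraries. Mock replicates 1 and 2 resembled each other most, as did replicates 3 and 4.

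**Figure D1:**
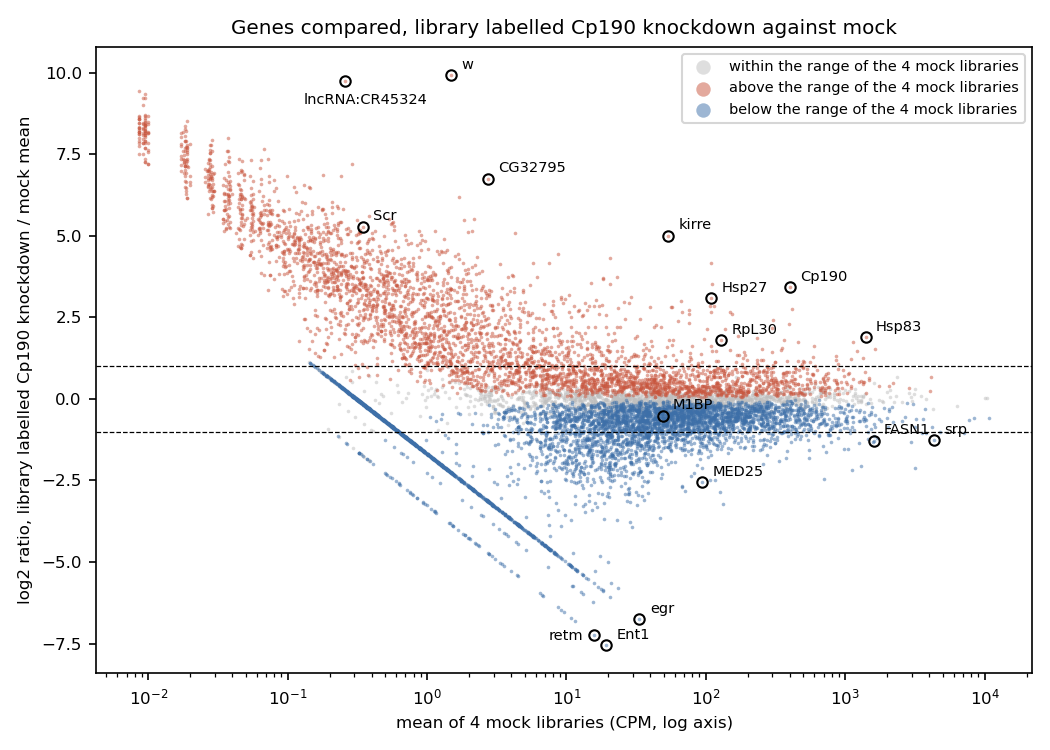
Log2 ratio of the library labelled *Cp190* knockdown to the mock mean (vertical axis) by mock mean in CPM (horizontal log axis), 1 point per gene compared, coloured by position against the 4 mock libraries, with dashed lines at 2-fold. Low genes spread widely, and the straight lower edges are genes with 0, 1 or 2 counts in the library (0 drawn at the floor of 3 counts). The 116 genes at 0 in all mock libraries are not drawn.

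The targeted gene went against its label. *Cp190* (FBgn0000283, chromosome 3R, 15270432 to 15275241, dm6) had 336, 376, 456 and 439 CPM in the 4 mock libraries and reached 4322 CPM here (95% Poisson interval 4281 to 4364 CPM, counting error only). This was 10.8-fold higher than the mock mean of 402 ± 55.8 CPM (SD, n = 4), a log2 ratio of 3.43. In counts, the library had 41772 and the deeper mock libraries 8864 to 12546. Relative to the same mock libraries, *Cp190* had a log2 ratio of -0.04 in the mean of 2 *M1BP* knockdown libraries and of -0.04 in that of 2 *mod(mdg4)* knockdown libraries. Reads were assigned to genes by position and strand, and whether reads of the transfected dsRNA are among those counted was not tested. *M1BP* (FBgn0037621) had 34.5 CPM, below all mock libraries at 43.8 to 54.1 CPM, a log2 ratio of -0.51 set beside -0.91 and 0.09 in the *M1BP* and *mod(mdg4)* knockdown libraries. *mod(mdg4)* was not analysed here.

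The high level was not shared by the region around *Cp190*. Toward lower coordinates, the zinc transporter gene *Zip88E*, whose end overlaps that of *Cp190* on the opposite strand, had 18 counts against 153 to 244 in mock, a log2 ratio of -1.96. Farther on that side *CG14864*, *ATPsynO* (a subunit of mitochondrial ATP synthase) and *Set* were above the mock range, with log2 ratios of 1.02, 0.71 and 0.47. On the other side *CG4338* and *MRG15*, a chromodomain protein of histone-modifying complexes, were below it at -0.51 and -1.20. The next genes, *l(3)neo43* at -0.18 and the tropomyosin gene *Tm1* at -0.02, lay within the mock range. *Su(var)3-9* and *asRNA:CR46081* had 0 counts in the library and at most 1 in any mock library.

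The largest ratio was at *w* (*white*, FBgn0003996, chromosome X, 2790599 to 2796466, minus strand), which encodes an ABC transporter of eye pigment precursors and is the classical reporter of insulator assays. It had 28, 38, 43 and 50 counts in mock libraries and 13774 in the library labelled *Cp190* knockdown, or 1425 CPM against 1.48 ± 0.393 CPM (SD, n = 4), a log2 ratio of 9.91. The same gene had 463 and 162 counts in *M1BP* and 118 and 54 counts in *mod(mdg4)* knockdown libraries of 7462623 to 13181160 counts. Its neighbour on the minus strand, *CG32795*, had 60 to 88 counts in mock and 2854 in the library, a log2 ratio of 6.75. Both genes lie inside *kirre* on the opposite strand (chromosome X, 2740384 to 3134532), which encodes an adhesion protein of myoblast fusion. *kirre* had 1110, 1164, 1840 and 1655 counts in mock libraries and 16603 in the library, or 53.6 ± 14.6 and 1718 CPM, a log2 ratio of 5.00. In contrast, *crm*, which precedes *kirre*, was below the mock range at -0.71. The genes around *w* and those around *lncRNA:CR45324* were chosen for description after their values were seen.

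**Figure D2:**
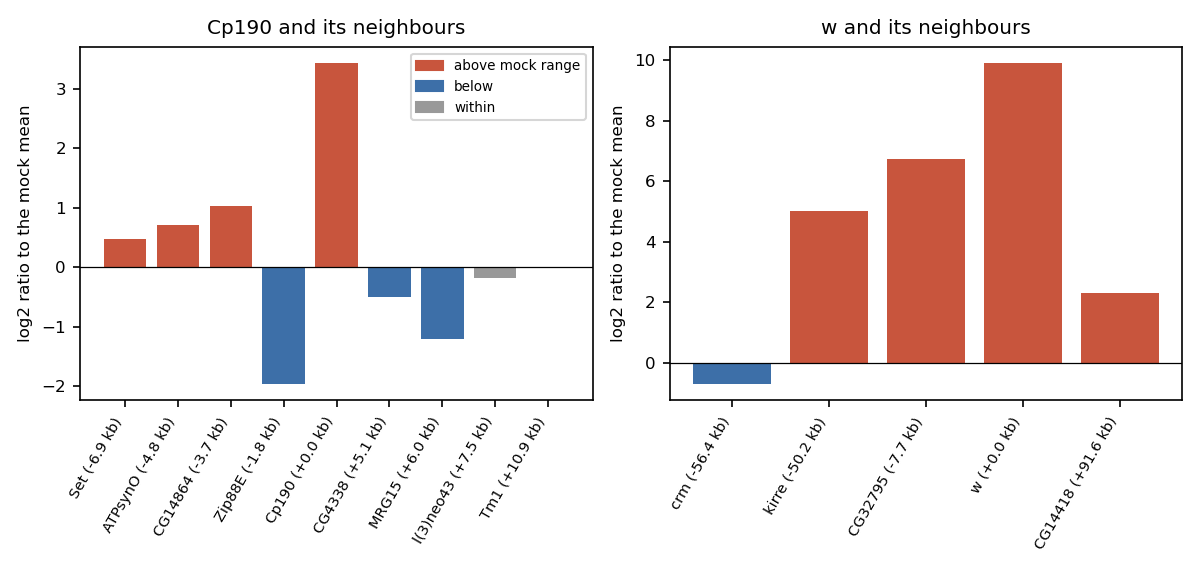
Log2 ratio to the mock mean (bars) for *Cp190* (left) and *w* (right) and the compared genes near them with at least 1 count in the library, in map order, with the distance of each gene's lower coordinate from that of the named gene in kb. Neighbours of *Cp190* lie on both sides of 0 (-1.96 to 1.02), while *kirre* and *CG32795* are high with *w*.

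The gene *lncRNA:CR45324* (FBgn0266863, chromosome 2R, 9988125 to 9989285), a noncoding RNA near the pair-rule gene *eve*, had 6, 5, 12 and 5 counts in mock libraries and 2134 in the library, a log2 ratio of 9.74. *eve* had 0 counts in the library and 0 to 12 in mock libraries, and *asRNA:CR43948*, which overlaps it on the opposite strand, 38 and 0 to 6. On either side, *eIF3j* (a translation initiation factor subunit) and *Pka-R2* (a regulatory subunit of protein kinase A) were above the mock range at 1.08 and 0.75, and *CG12134* and *CG12128* were below it at -1.67 and -0.52. In *M1BP* knockdown libraries *lncRNA:CR45324* had 8 and 49 counts, and in *mod(mdg4)* knockdown libraries 7 and 11.

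The other large increases started from near 0. *CG15255*, *CG31102*, *al* (a homeobox gene of appendage development) and *CG13793* had 0 to 5 counts in any mock library and 130, 114, 100 and 108 counts in the library. *CG31121* had 2 to 8 counts in mock and 202 in the library, and *CG13300* 4 to 8 and 268. *Ste12DOR*, a *Stellate*-like gene with near-identical copies, for which read assignment is uncertain, had 0 to 17 counts in mock and 412 in the library. It had 330 and 138 counts in *M1BP* knockdown libraries and 1 and 13 counts in *mod(mdg4)* knockdown libraries.

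At the other extreme, genes well counted in every mock library were nearly absent. *egr* (FBgn0033483, chromosome 2R, 10078366 to 10084210), the TNF ligand that activates JNK signaling, had 924, 1023, 895 and 783 counts in mock libraries and 0 in the library, at least 108-fold lower than the mock mean of 33.4 CPM when the library is set to the floor of 3 counts. *CG2260* had 531 to 629 counts in mock and 0 in the library, at least 66.6-fold lower. *Ent1*, an equilibrative nucleoside transporter, had 247 to 779 counts in mock and 1 in the library, 186-fold lower with a counting interval of 33.4 to 7350. *retm* had 328 to 533 and 1 count, 152-fold lower (interval 27.4 to 6020). The P450 gene *Cyp4d2* had 249 to 350 and 1 count, 112-fold lower (interval 20.1 to 4420), and beside it *asRNA:CR45479* had 252 to 309 counts and 1 count and *Cyp4d14* 98 to 153 counts and 1 count. In *M1BP* and *mod(mdg4)* knockdown libraries *egr* had 261 to 356 counts and *Ent1* 104 to 182. *lncRNA:CR45232*, *CG4866* and *PIG-K*, a subunit of the enzyme that attaches GPI anchors, had 1 count each and *CG1835* 2, against 161 to 442 in any mock library.

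Such absences were frequent in the library labelled *Cp190* knockdown. Of 5883 genes with at least 200 counts in every mock library, 28 had 0 counts and 41 had at most 3 counts in the library. None of the 2 *M1BP* and 2 *mod(mdg4)* knockdown libraries, at 7462623 to 13181160 counts, had a gene of these 5883 with 3 counts or fewer, and the 41 genes had at least 23 counts in each. The 41 genes had a median length of 1840 bp, compared with 3202 bp for the 5883. At the same time the library had at least 10 counts for 8915 genes, more than the 8720 to 8868 of the deeper mock libraries, and 0 counts for 8388 genes, more than the 5576 to 6385 of mock. Its 10 highest genes took 6.65% of counts, against 6.91% to 8.12% in mock. The library thus had more genes with at least 10 counts and more at 0 than any mock library. A lower depth by itself raises the number at 0, and that number was not taken at equal depth.

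**Figure D3:**
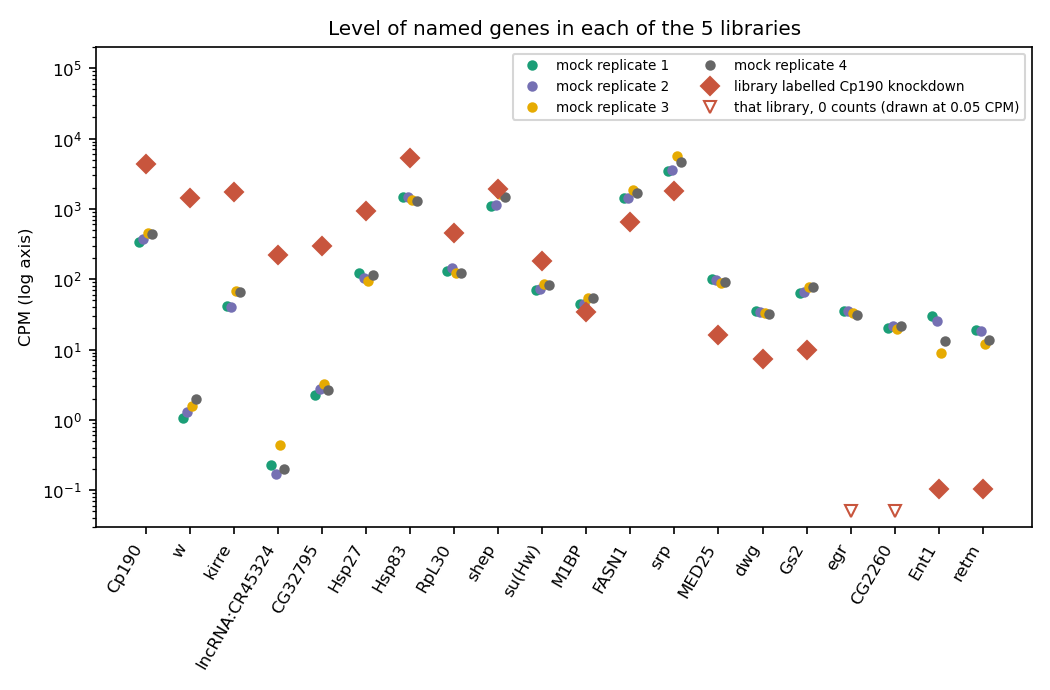
CPM (log axis) of 20 named genes in each of the 4 mock libraries (circles) and in the library labelled *Cp190* knockdown (diamonds, or open triangles for 0 counts, drawn below all other points). *Cp190*, *w*, *kirre*, *lncRNA:CR45324* and *CG32795* stand far above the mock libraries, and *egr*, *CG2260*, *Ent1* and *retm* far below.

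Expression level and gene length went with the direction of the difference. Genes were divided into 5 classes of equal size by their mean over all 5 libraries. In class 1 (under 1.19 CPM) the median log2 ratio was 2.27, with 1163 of 2036 genes at least 2-fold higher, against 330 lower by that much, and 843 of the class had passed the filter through the library alone. Without those 843 genes the median of class 1 was -0.16, with 321 genes at least 2-fold higher and 330 lower by that much. Of the 1193 genes then left, 740 had 0 counts in the library, so their ratios, and with them this median, rest on the floor of 3 counts. Class 2 had a median of 0.85, and classes 3, 4 and 5 had medians of -0.33, -0.32 and -0.17. Class 5 (over 97.4 CPM) had 88 genes at least 2-fold higher, against 138 lower by that much. Genes over 30 kb had a median log2 ratio of 0.91, with 327 of 664 at least 2-fold higher, against 30 lower by that much, against -0.17 for genes of 1 to 3 kb and -0.18 for genes of 3 to 10 kb. In level classes 1 and 2 the median was higher with each length class, from 0.36 under 1 kb and 0.45 at 1 to 3 kb to 1.70 at 3 to 10 kb, 2.42 at 10 to 30 kb and 3.20 over 30 kb. Without the genes that passed through the library alone (204, 372, 246, 95 and 16 of these length classes), the medians were -0.21, -0.16, 0.57, 1.92 and 3.03. Genes with 0 counts in the library, whose ratios the floor sets, were 336 of 695, 461 of 1220, 167 of 585, 53 of 411 and 3 of 228. Their part in the order of these medians was not tested. In level classes 4 and 5 the medians by length were 0.06, -0.22, -0.33, -0.25 and -0.05.

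**Figure D4:**
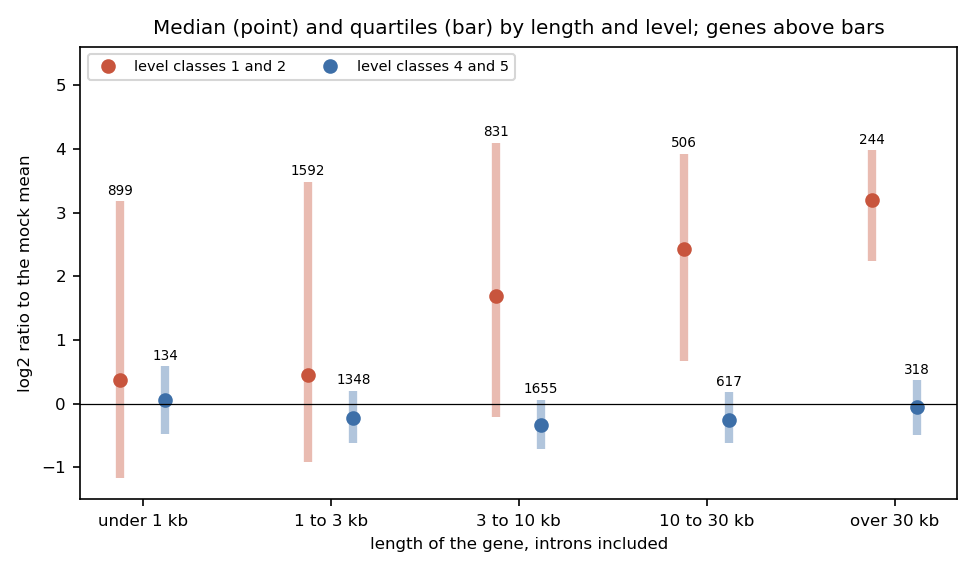
Median (points) and quartiles (bars) of the log2 ratio to the mock mean by gene length, for level classes 1 and 2 (red) and 4 and 5 (blue), with the number of genes above each bar. All genes compared are drawn. Medians of low genes go from 0.36 to 3.20 with length (-0.21 to 3.03 without genes that passed the filter through the library alone), and those of high genes stay between -0.33 and 0.06.

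By chromosome, medians were close to each other on the large arms, at -0.05 on 2L, -0.09 on 2R, -0.03 on 3L, -0.02 on 3R, -0.17 on X and -0.14 on 4. Protein-coding genes had a median of -0.10 (9321 compared) and genes annotated as ncRNA 0.71 (681 compared), but 162 of the latter had passed the filter through the library alone, and without them the median was 0.08. Among 506 compared genes named as long noncoding RNAs, 239 were at least 2-fold higher, against 103 lower by that much (median 0.73), and for 211 antisense RNAs these counts were 89 and 62 (median 0.41). Without the 130 long noncoding RNAs and 37 antisense RNAs that had passed through the library alone, these medians were -0.04 and 0.07. At a mean of at least 5 CPM 53 of 105 long noncoding RNAs were above and 39 below the mock range. Of 9 compared genes of chromosome Y, 5 were at least 2-fold higher, against 2 lower by that much, among the former *CCY* with 789 counts against 152 to 318 in mock and *Ppr-Y* with 799 against 107 to 208. Of 113 annotated Y genes, 102 had 0 counts in all 5 libraries. The line is of female origin, and the source of the reads counted at Y genes, in mock libraries as well, was not tested.

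Insulator and architectural protein genes lay on both sides of the mock range in shares near those of all genes. Of 23 compared members, *Cp190* and *M1BP* included, 14 were below the mock range and 6 above it, with 4 at least 2-fold lower and 3 at least 2-fold higher, and the median log2 ratio was -0.33, beside -0.07 for all genes and -0.26 for genes of at least 5 CPM. At this level 13 of 22 members were below the range, where 52.1% of all genes were. *su(Hw)*, which encodes the DNA-binding protein of the *gypsy* insulator, had 69.9, 72.2, 84.4 and 84.0 CPM in mock and 180.2 CPM in the library, a log2 ratio of 1.22. *Ibf1*, a BED finger partner of CP190, was above the mock range at 1.47, whereas its adjacent partner gene *Ibf2* was below it with 5.75 to 8.22 CPM in mock and 2.59 CPM in the library. *dwg* (Zw5), another zinc-finger insulator protein, had 31.7 to 35.0 CPM in mock and 7.24 CPM in the library, a log2 ratio of -2.21, and *Elba2*, of an early embryonic boundary complex, had -2.12. *Trl*, which encodes GAGA factor, had 79 to 125 counts in mock and 0 in the library, at least 12.0-fold lower. *CTCF* was slightly below the mock range (-0.27), *pita* further (-0.83), and *BEAF-32* within it (-0.04). Of the cohesin genes, *SMC1* was above the range (0.72), *SMC3* below (-0.37) and *vtd* within (-0.07), as was the loading factor gene *Nipped-B* (0.09). *shep*, whose RNA-binding product antagonizes insulator activity in neurons, had 1341 ± 265 CPM (SD, n = 4) in mock and 1916 CPM in the library, above the range at 0.52.

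Motif 1 promoters were examined through the strongest matches listed with the study, where a match lies within 1000 bp of a gene start. Their shared core is shown in capitals for genes on different sides of the mock range or within it, from 5′ to 3′ on the strand of the match.
*RpLP1* (chromosome 2L): ggcgcGGTCACActg
*PDZ-GEF* (chromosome 2L): ggtgtGGTCACActg
*su(Hw)* (chromosome 3R): gcaacGGTCACActg
*PIG-K* (chromosome X): tcgacGGTCACActg
*Atg3* (chromosome 3L): gcttcGGTCACActa
*RpLP1*, a ribosomal stalk protein gene, lay within the mock range with a log2 ratio of 0.15 (863 CPM against 659 to 907 in mock), although its match is the same from the core onward as that of *PDZ-GEF*. *PDZ-GEF*, an activator of Rap GTPases, had 208 to 225 CPM in mock and 87.2 CPM in the library, a log2 ratio of -1.33. *su(Hw)* and *PIG-K* again share these bases and had ratios of 1.22 and -6.39. Over all 1445 compared genes with a listed match, 389 were above and 742 below the mock range and the median log2 ratio was -0.24, beside -0.03 for the 8735 compared genes without one. At a mean of at least 5 CPM the medians were -0.28 and -0.25, with 665 of 1236 and 2807 of 5425 genes below the mock range. The copy of the list used here was cut short at 1999 matches, and genes counted as without one can carry a weaker match left out of it.

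Cytosolic ribosomal protein genes were higher almost as a group. Of 84 compared, 65 were above the mock range, 1 below and 18 within it, 10 were at least 2-fold higher, against 0 lower by that much, and the median log2 ratio was 0.57 (quartiles 0.34 and 0.84). At a mean of at least 5 CPM, 62 of 80 were above and 0 below, where 27.0% of all such genes were above. *RpL5*, a binding partner of 5S rRNA, had 1091 to 1568 CPM in mock and 1800 CPM in the library, a log2 ratio of 0.51. *RpL30* had 132, 142, 121 and 123 CPM in mock and 451 CPM in the library, a log2 ratio of 1.80. The germline paralog *RpS5b* had 5 to 35 counts in mock and 43 in the library. Mitochondrial ribosomal protein genes did not share this, with 21 of 72 above and 32 below, a median of -0.09. By 2-fold or more, 4 were higher and 13 lower, the latter share near the 17.1% of all genes. Nuclear genes of oxidative phosphorylation (24 of 74 above, 27 below) and of the proteasome (9 of 30 above, 13 below, median -0.11) were split between both sides.

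Heat shock genes were mostly higher. Of 23 compared genes of heat shock proteins and chaperones, 18 were above the mock range and 1 below, 14 were at least 2-fold higher, against 0 lower by that much, and the median log2 ratio was 1.90. Of all genes compared, 38.8% were above and 24.8% at least 2-fold higher. At a mean of at least 5 CPM, 17 of 22 of these genes were above, where 27.0% of all such genes were. *Hsp27*, a small heat shock protein, had 93.9 to 122 CPM in mock and 922 CPM in the library, a log2 ratio of 3.09. *Hsp23*, *Hsp26* and *Hsp68* had ratios of 2.60, 2.43 and 2.17. *Hsp83*, which encodes Hsp90, had 1309 to 1488 CPM in mock and 5222 CPM in the library (log2 ratio 1.90), and the heat-inducible noncoding RNA *lncRNA:Hsromega* had 1522 to 1751 and 4793 CPM (1.54). The 6 *Hsp70* copies had ratios of 2.21 to 3.40, but they are nearly identical and reads matching several copies were not counted. In contrast, the constitutive *Hsc70-4* was above the range by 0.39 only, and *Hsc70-3*, the chaperone of the endoplasmic reticulum known as BiP, was below it at -0.49. Genes of the unfolded protein response had a median of -0.07, with 6 of 18 above and 8 below the range, and *Xbp1*, its central transcription factor, was below it at -0.68.

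RNAs of the mitochondrial genome were mostly higher. Of all genes compared, 24.8% were at least 2-fold higher and 17.1% lower by that much. Of 19 compared mitochondrial genes, 15 were at least 2-fold higher, against 2 lower by that much (median 1.80). Their summed level was 1865 to 4102 CPM in mock and 5553 CPM in the library. Without the 3 that had passed the filter through the library alone, 12 of 16 were higher by this much. *mt:CoIII*, a subunit of cytochrome c oxidase, had 733, 737, 978 and 1002 CPM in mock and 2150 CPM in the library, and *mt:CoI* 488 to 1424 and 1889 CPM. The large ribosomal RNA *mt:lrRNA* had 52.2 to 80.3 and 426 CPM, a log2 ratio of 2.66. The lower ones were *mt:ATPase8*, with 1 count against 10 to 27 in mock, and *mt:ND1*. *mt:ND1*, which lies beside *mt:lrRNA* on the same strand, had 429 to 1188 CPM in mock and 358 CPM in the library, below all mock libraries at a log2 ratio of -1.11. The mock libraries themselves differed here, since replicates 3 and 4 had more than replicates 1 and 2 for *mt:CoI* and *mt:ND1*. Small nuclear and nucleolar RNAs were also higher, with 14 of 16 above and 1 below the mock range and a median of 1.76, although counts of such short genes depend on how RNA was sized and many of their copies share reads. Without the 2 that had passed the filter through the library alone, 12 of 14 were above. The shares of all genes above were 38.8%, and 32.6% without such genes. *snRNA:7SKa*, the RNA that holds P-TEFb inactive, varied among mock libraries, with 869 and 983 CPM in replicates 1 and 2 but 154 and 247 CPM in the others, and had 1236 CPM in the library.

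Mediator and TFIID genes mostly lay below the mock range. Of 44 compared genes of Mediator and TFIID, which join activators and promoters to RNA polymerase II, 31 were below and 4 above the range, 11 were at least 2-fold lower and 1 at least 2-fold higher, and the median log2 ratio was -0.46. *MED25* had 89.4 to 99.6 CPM in mock and 16.0 CPM in the library, a log2 ratio of -2.55, and *MED16* and *Taf10* had -1.63 and -1.60. *Taf10b*, which adjoins *Taf10* in the opposite direction, was above the range at 1.80. The TBP-related factor gene *Trf2* lay within it at 0.22. Among 21 genes of polymerase pausing and elongation, 10 were below and 2 above (median -0.29), a share below and a median close to those of all genes of at least 5 CPM (52.1% and -0.26). *Cdk9*, the kinase of P-TEFb, was at -1.63 and *CycK* at -1.25, whereas the NELF subunit gene *Nelf-A* lay within the range at -0.08.

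Polycomb group genes, which maintain gene silencing, were mostly lower as well, mainly by less than 2-fold. All 20 compared had a mean of at least 5 CPM. Of all genes at that level, 52.1% were below the mock range and 16.1% at least 2-fold lower, with a median of -0.26. Of the 20, 16 were below and 2 above the mock range, the median log2 ratio was -0.50, and 1 was at least 2-fold lower. That gene was *ph-d* with 49.7 to 68.3 CPM in mock and 29.1 CPM in the library, and its tandem copy *ph-p* was at -0.96. *E(z)*, the H3K27 methyltransferase, and *Su(z)12* of the same complex were at -0.73 and -0.85, and *Pc* at -0.36. Hox and nearby homeobox genes, known targets of Polycomb silencing, were low in mock and mostly higher in the library. Of 9 compared, 7 were at least 2-fold higher, against 1 lower by that much, with summed levels of 18.4 to 24.9 CPM in mock and 55.6 CPM in the library. Without the 1 that had passed the filter through the library alone, 6 of 8 were higher by this much. *Scr* had 11, 13, 10 and 4 counts in mock and 130 in the library (log2 ratio 5.28), *Ubx* 11 to 45 and 81 (3.41), and *Antp* 17 to 41 and 57 (2.36). *Dfd*, the one compared Hox gene with a mean of at least 5 CPM, was lower instead, with 13.7 to 20.1 CPM in mock and 6.83 CPM in the library (-1.30). Without the genes under 5 CPM, *Dfd* is the sole member left, so the direction of the list rests on low genes. Of all genes compared, 24.8% were at least 2-fold higher. In level classes 1 and 2 this held for 71.7% of genes of 10 to 30 kb and 92.2% over 30 kb. *Scr*, *Ubx* and *Antp*, of 26862, 77804 and 102976 bp, are low and long too. Whether Hox genes differ from other such genes, or go with the Polycomb group genes, was not tested.

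**Figure D5:**
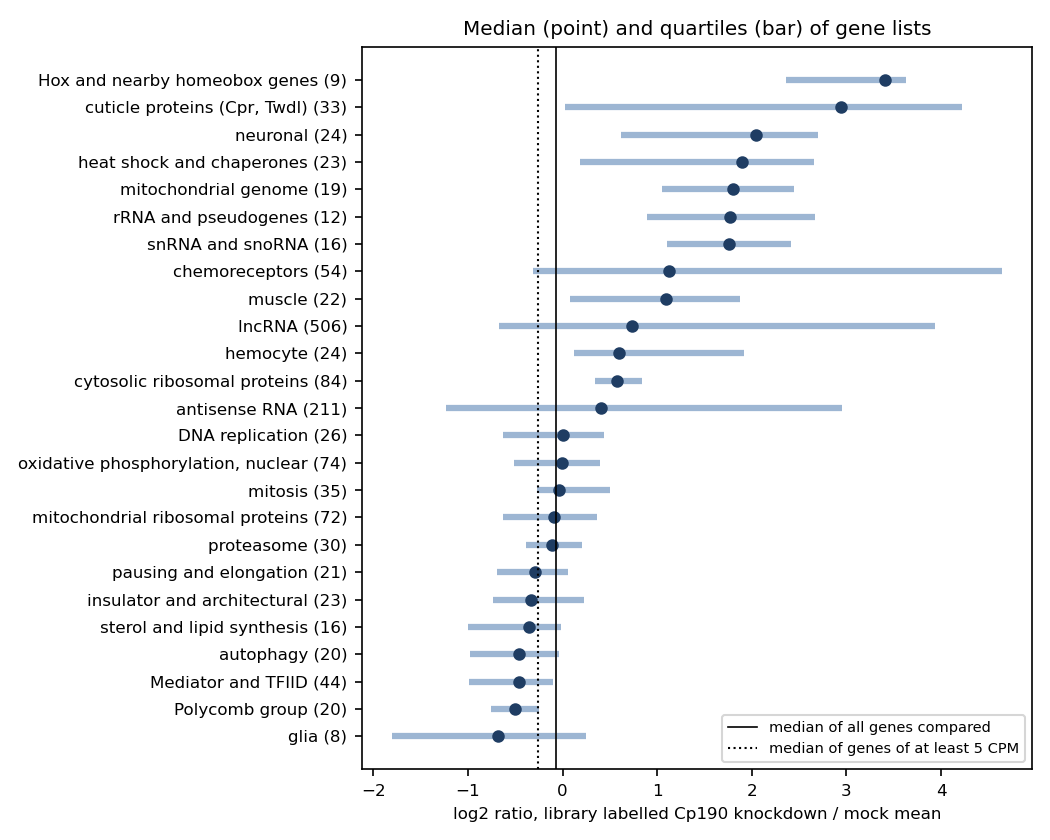
Median (points) and quartiles (bars) of the log2 ratio to the mock mean for 25 gene lists, with the number of members compared in brackets. The solid line is the median of all genes compared (-0.07) and the dotted line that of genes of at least 5 CPM (-0.26). Hox, cuticle, neuronal and heat shock lists lie far to the right, and Mediator, Polycomb and glial lists to the left.

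Genes of lipid synthesis, autophagy and glycolysis had more members below than above the mock range, as had all genes of at least 5 CPM (52.1% below and 27.0% above). The shares below in lipid synthesis (56.2%) and glycolysis (57.1%) were near that of all these genes, and the share in autophagy was 65.0%. In sterol and lipid synthesis, 9 of 16 compared genes were below and 3 above the mock range (median -0.35). The lower ones included *SREBP*, the transcription factor of lipid synthesis in flies, with 1470 to 1732 CPM in mock and 734 CPM in the library (-1.13), its activator *SCAP* (-0.97), the fatty acid synthase gene *FASN1* with 1423 to 1855 and 660 CPM (-1.28), and *ACC*, which makes malonyl-CoA (-1.13). *FASN2*, which adjoins *FASN1*, was above the range with 21 to 30 counts in mock and 65 in the library. Autophagy genes were below the range for 13 of 20, with *Atg7* at -2.51, *Atg3* at -1.83 and *Atg2* at -1.65, and above it for 4. Glycolysis genes had 8 of 14 below and 3 above, with *Pgk* at -1.15. Mitosis genes (15 of 35 above, 13 below, median -0.04) and DNA replication genes (9 of 26 above, 8 below, median 0.01) lay on both sides of the range. At a mean of at least 5 CPM, 15 of 34 mitosis genes were above and 13 below, where 27.0% and 52.1% of all genes were. The summed level of mitosis genes was 3126 to 3437 CPM in mock and 4033 CPM in the library. Within these lists the Cdc25 phosphatase gene *stg* was at 1.15 and the kinesin gene *Klp61F* at 1.01, while the checkpoint genes *BubR1* and *Bub1* were at -1.15 and -1.01. *Sld5*, of the GINS complex of the replication fork, had 180 to 240 counts in mock and 0 in the library, at least 24.6-fold lower.

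Several markers of blood cells, among them *srp*, *Hml* and *Pxn*, were counted in all 5 libraries but not at equal levels. Of the 30 hemocyte genes listed, 6 had 0 counts in the library, and 2 had 0 counts in all 5 libraries. The GATA factor gene *srp* had 3427, 3521, 5600 and 4678 CPM in mock and 1786 CPM in the library, a log2 ratio of -1.27. Of 24 compared hemocyte genes, 17 were above and 6 below the mock range, beside 38.8% and 45.6% of all genes compared. The summed level of the hemocyte genes was 12870 to 15720 CPM in mock and 13250 CPM in the library. *Pxn*, a peroxidasin of the basement membrane, had 215 to 294 CPM in mock and 733 CPM in the library (1.52), and *glob1*, a globin, 38.2 to 49.3 and 211 CPM (2.26). *Hml* was higher by 0.55, and *NimC1* and *eater* had 2 to 12 counts in mock and 25 and 18 in the library. *Sxl*, which is active in female cells, had 508 to 684 CPM in mock and 366 CPM in the library (-0.68). The male-specific *lncRNA:roX1* had 0.103 to 0.327 CPM in mock and 0.517 CPM in the library, from 3 to 9 and 5 counts.

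Markers of other cell types differed by list, with neuronal, muscle and cuticle genes mostly higher and the others split or lower. Of all genes compared, 38.8% were above and 45.6% below the mock range, 24.8% at least 2-fold higher and 17.1% lower by that much. A mean of at least 5 CPM was reached by 12 of 24 neuronal, 11 of 22 muscle and 6 of 8 glial genes, but by 2 of 33 cuticle protein genes. Of 24 compared neuronal genes, 19 were above and 1 below the mock range and 16 were at least 2-fold higher, with a summed level of 2769 to 3376 CPM in mock and 3590 CPM in the library. Without the 2 that had passed the filter through the library alone, 14 of 22 were higher by this much. The neuroblast gene *ase* was at 0 in all 5 libraries. *ChAT*, of acetylcholine synthesis, had 3 to 10 counts in mock and 34 in the library (3.98), and *Syt1*, the calcium sensor of synaptic vesicles, 2 to 14 and 28 (3.23). The innexin gene *shakB* had 2.60 to 7.60 CPM in mock and 47.3 CPM in the library (3.27), the potassium channel gene *eag* 13.1 to 16.9 and 66.2 CPM (2.21), and *futsch*, of the microtubule cytoskeleton, 39.8 to 40.8 and 139 CPM (1.78). *elav* was above the range by 0.71, and *Snap25*, of the synaptic vesicle fusion machinery, lay within it at 0.09. Of 22 muscle genes, 15 were above and 5 below (13 of 20 above without the 2 that had passed the filter through the library alone). Among the former was *rols*, a scaffold of myoblast fusion, with 90.4 to 121 CPM in mock and 765 CPM in the library (2.84). Cuticle protein genes had 23 of 33 at least 2-fold higher, with *Cpr49Ac* at 31.1 to 46.3 and 280 CPM (2.83), and 11 of the 33 had passed the filter through the library alone, without which 12 of 22 were higher by this much. Chemoreceptor genes had 28 of 54 at least 2-fold higher, against 9 lower by that much, but 19 of them had passed the filter through the library alone, and without these each count was 9 of 35. Their summed level, 321 CPM, lay within the mock range of 259 to 329 CPM, and at a mean of at least 5 CPM 2 of 7 were above and 4 below. Glial genes were lower instead, with 4 of 8 at least 2-fold lower, *Gs2* at -2.84 and *Gli* at -1.53. Fat body genes were split (7 of 13 above, 6 below, and 5 of 11 above without the 2 that had passed the filter through the library alone), and *AkhR* had 11 counts against 0 to 3 in mock. The part of low level and gene length in these differences was not tested.

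Signaling lists held single large differences without a common direction. Of all genes compared, 38.8% were above and 45.6% below the mock range. The Toll and Imd, JAK-STAT and JNK, Notch and ecdysone lists were near this, with 38.9% to 48.1% above and 36.4% to 50.0% below. In the Toll and Imd immune list 13 of 27 compared genes were above and 11 below the mock range. *PGRP-SC2*, an amidase that degrades peptidoglycan, had 30 to 42 counts in mock and 318 in the library (4.56), and *pirk*, an inhibitor of Imd signaling, 117 to 175 and 0, at least 17.7-fold lower. In the JAK-STAT and JNK list 10 of 22 were above and 8 below. The ligand genes *upd1* (1 to 6 counts in mock, 74 in the library) and *upd2* (14.2 to 18.6 and 48.9 CPM, log2 ratio 1.59) were above the range, *hep*, the JNK kinase, was below it at -1.19 beside *egr*, and *kay* (Fos) lay within it at -0.01. In Notch signaling 9 of 21 were above and 9 below the range. The metalloprotease gene *kuz* had 1257 to 1428 CPM in mock and 3183 CPM in the library (1.24), the glycosyltransferase gene *fng* was at 2.63, and the coactivator gene *mam* had 1261 ± 106 CPM in mock and 497 CPM in the library (-1.34). For genes of ecdysone signaling (7 of 18 above, 9 below) *Hr38* was at 2.26 and *Eip63F-1* at -2.25.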

How the data were processed

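EU-labelled nascent RNA of Kc cells was sequenced, and 1 library labelled *Cp190* knockdown was compared with 4 mock libraries, grouped by their labels. The authors deposited raw counts per gene. By the methods and the submitters' processing notes, reads were trimmed with cutadapt 2.7 (quality 20, minimum length 25), aligned with HISAT2 2.1.0 to dm6 (FlyBase r6-24), handled with SAMtools 1.9 and assigned by gene and strand with featureCounts 1.6.4, introns included. Multi-mapping reads were not counted, so levels of near-identical copies are uncertain. 2 per-sample columns under 1 duplicated heading were not used.

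Counts were filtered with filterByExpr and scaled by TMM with edgeR 4.0.16 in R 4.3.3 and summarised with pandas 2.3.3 in Python 3.11.15. The log2 ratio is library CPM over mean mock CPM, with a floor of 3 counts where a group was at 0. A gene was called above or below when it lay outside all 4 mock libraries. With 1 library there is no test. Intervals are exact Poisson intervals and, like floors, cover counting error only. Fewer cells and less RNA per cell cannot be told apart in bulk libraries. Scripts were tested on simulated data.

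Named genes are *Cp190*, *M1BP*, the 10 largest ratios in each direction with at least 100 counts in the library or in every mock library, and the extremes and fixed members of 43 gene lists. Other members and the genes around *w* and *lncRNA:CR45324* are examples chosen after their values were seen. Members and lists were chosen with earlier results of these data known. Alternatives were DESeq2 1.42.0 size factors and other scalings, filters, fold thresholds and pseudocounts, and leaving out each mock library. A search for motifs in promoter sequences was not run, as no promoter sequences were used here.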

Additional observations from a re-analysis of the deposited data

Results flagged for a closer look

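In 7 of 158 named genes 1 mock library stood apart from the other 3 by a gap that is large for the range of the 4, and chance gives this in about 1 of 20 groups of samples. *hep* had 189 CPM in mock replicate 3 and 176 to 178 CPM in the others, and *futsch* 39.8 CPM in mock replicate 1 and 40.6 to 40.8 CPM in the others. *CG14864*, near *Cp190*, had 4.59 CPM in mock replicate 1 and 3.46 to 3.60 CPM in the others. The remaining ones are low genes. *CG13300* had 0.137 CPM in mock replicate 2 against 0.265 to 0.291, *eater* 0.436 CPM in mock replicate 3 against 0.103 to 0.152, *asRNA:CR46081* 0.0379 CPM in mock replicate 1 and *Wnt10* 0.0364 CPM in mock replicate 3, both with 0 in the others. These gaps were smaller than the distance of the library labelled *Cp190* knockdown from the mock libraries, other than for *asRNA:CR46081*, which had 0 counts in it.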

How the results depend on the processing

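The counts depended on the filter, the scaling, the depth and the fold threshold. With upper-quartile scaling 4485 genes lay above and 4086 below the mock range, so the balance turned. With mock counts thinned at random to the depth of the library these numbers were 3955 and 3937. Genes above the mock range numbered 2595 with at least 10 counts in every library and 1801 with a mean of at least 5 CPM, and those at least 2-fold higher 1180 and 554. Genes at least 2-fold lower numbered 1004 and 1074 under these filters, and 2972 and 664 with a 1.5-fold and a 4-fold threshold. The share of 2-fold differences that were higher was 59.2%, but 34.0% with a mean of at least 5 CPM, 54.0% with at least 10 counts and 64.9% with upper-quartile scaling, which moved the median of all genes from -0.07 to 0.10. With a 1.5-fold and a 4-fold threshold that share was 50.7% and 73.8%. Without the genes that passed the filter through the library alone, an alternative added after the data were seen, 1590 genes were at least 2-fold higher (47.8% of 2-fold differences). The list medians of long noncoding RNA (-0.04), chemoreceptor (-0.02), tRNA (-0.34), fat body (-0.29) and immune genes (-0.15) and that of level class 1 (-0.16) then changed sign. In that class 740 of the 1193 genes left had 0 counts in the library, with ratios set by the floor.

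The log2 ratio of *Cp190* stayed between 3.27 and 3.60 under 15 alternatives. Of 204 named genes with a 2-fold difference, 0 of 2828 values under the alternatives had the opposite sign. Genes were mainly named for large differences and every alternative uses the same library, so a change of sign was unlikely beforehand. List medians of the Hox genes (-1.30) and chemoreceptor genes (-0.29) changed sign with a mean of at least 5 CPM, as did that of fat body genes (-0.29). Medians near 0, as for oxidative phosphorylation, Notch, mitosis, DNA replication, immune, ecdysone, proteasome and mitochondrial ribosomal protein genes, also took either sign. No paired analysis was possible because the group holds 1 library. Relative to mock replicate 1 alone, which has the same number, *Cp190* had a log2 ratio of 3.68. With 1 library, differences between cultures cannot be told apart from those between conditions, and at its depth a gene below 0.31 CPM gives fewer than 3 counts.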

Other observations

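Genes of RNA interference, the pathway that processes transfected dsRNA, had 8 of 16 compared members below and 3 above the mock range, with a median log2 ratio of -0.16. The share below, 50.0%, was near that of all genes (45.6%, or 52.1% with a mean of at least 5 CPM). The dsRNA-binding protein gene *loqs* had 531, 674, 325 and 373 counts in mock and 55 in the library (-1.62), and the exportin gene *Ranbp21* was at -1.09. *blanks*, which encodes another dsRNA-binding protein, was above the range with 29.1 ± 6.96 CPM (SD, n = 4) in mock and 71.0 CPM in the library (1.28). In the apoptosis list 12 of 24 were below, the same share, and 8 above (median -0.27), with the checkpoint kinase gene *mei-41* at -1.22 and the stress-induced factor gene *Xrp1* at -0.58. *skl*, a cell death activator beside *rpr* and *hid*, had 0 to 6 counts in mock and 42 in the library. Genes of sex determination and dosage compensation had 8 of 13 below and 3 above, with *msl-2* at -1.56.

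Wnt signaling genes included members far from mock in both directions. *Wnt6* had 40 to 68 counts in mock and 138 in the library (2.83) and *Wnt10* 0 to 1 and 30, and the extracellular Wnt inhibitor gene *Notum* was at 3.05, whereas *Apc2* of the destruction complex was at -1.99, *dsh* at -1.16 the receptor gene *fz3* had 39 to 59 counts in mock and 0 in the library, and the kinase gene *sgg* lay within the range at 0.01. Of all 21 compared in this list, 6 were above and 10 below. Among all genes compared, 38.8% were above and 45.6% below. Adhesion and matrix receptor genes had 8 of 21 above and 9 below, detoxification genes 12 of 27 above and 9 below, and germline genes 10 of 19 above and 8 below. In the last list *piwi* had 6 to 21 counts in mock and 24 in the library, and *krimp*, another gene of the piRNA pathway, 102 to 211 and 0. Epithelial genes had 13 of 22 above and 6 below, with the chitinase gene *Cht2* at 539 to 985 counts in mock and 20 in the library (-3.78). P450 genes had 18 of 53 at least 2-fold higher, against 14 lower by that much (11 of 46 without those that passed the filter through the library alone). Among RNA genes of repeated families, whose copies share reads, 8 of 12 rRNA genes were above and 0 below the range (6 of 10 above without the 2 that passed the filter through the library alone). The tRNA genes had 4 of 14 above and 8 below (0 of 10 above without the 4 that passed the filter through the library alone), and 1 of 111 histone cluster genes was compared, within the range.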
